A study of Mus musculus with 4 samples.

Results

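The genes described here encode the proteins that license replication origins, unwind DNA, copy it and clamp the polymerases to it. They were chosen by symbol from a fixed list of 49 genes. All 49 were found among the 21945 genes tested, with 89 of the 34200 tested transcripts, all of them protein-coding. NIH/3T3 cells, an immortalised line of mouse embryo fibroblasts, were co-transfected with 2 *Setd2*-specific siRNAs (KD) or with a non-targeting Scrambled siRNA at a final concentration of 10 nM, and polyadenylated RNA was sequenced 48 h later from 2 libraries in each group. The Scrambled libraries carry the label wild type and are called WT here, although those cells were transfected in the same way as KD. *Setd2* encodes a histone methyltransferase that places H3K36me3 along transcribed genes, and the study examined what happens to mRNA processing when this mark is depleted. The cells are an unsorted, growing population of a single line, so a lower level of an S phase mRNA in every cell and a smaller share of cells in S phase cannot be told apart in these bulk samples.

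Replication is prepared in G1, when the origin recognition complex, CDC6 and CDT1 load the MCM ring onto DNA, and geminin binds CDT1 to prevent a repeat of loading in the same cycle. The kinase CDC7 with its activator DBF4 then helps CDC45 and the GINS complex to join the ring and form the active helicase. Polymerase alpha with primase starts each strand, polymerases epsilon and delta extend the strands, and replication factor C loads the sliding clamp PCNA that holds them on the template. Most of these genes are transcribed periodically in cycling cells and are known targets of E2F transcription factors.

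Levels are given as normalised estimated counts, which are Kallisto's estimates of the reads from a transcript, scaled to make the libraries comparable. A group's level is the geometric type of mean over its 2 libraries, rebuilt from the deposited mean and effect on the natural log scale, and every effect is KD against WT with n = 2 libraries in each group. The level of a gene is the sum over its tested transcripts and has no error of its own. A transcript was called when its adjusted p in limma, adjusted by Benjamini-Hochberg over all 34200 transcripts, was under 0.05. The files used here summarise the libraries of a group, so library depth is unknown and no counting interval is given. It can still be decided from the rebuilt spread whether the groups overlapped: above a certain ratio of effect to spread, both KD libraries must lie on the same side of both WT libraries, and below a lower ratio they cannot.

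The level of *Setd2* was 3680 in WT and 923 in KD, lower by 74.9% (log2(fold change) -1.99, SE 0.081, adjusted p = 0.0144 in limma). All 6 fibroblast markers were detected, at WT levels from 2723 to 346235, and the 2 collagen genes *Col1a1* and *Col1a2* fell in KD, each with a log2(fold change) of -0.68 (adjusted p = 0.0368 and 0.0218 in limma). The summed levels of the other 4 had no call and lay on both sides of 0, at 0.36 for *Pdgfrb*, 0.06 for *Vim*, -0.19 for *S100a4* and -0.26 for *Thy1*. Of 10 markers of epithelial, blood, endothelial and neural cells, *Epcam*, *Krt18* and *Sox2* had no tested transcript, 5 of the other 7 lay under 100 in both groups, and the highest WT level among them was 303, for *Cd68*. Their summed level was 532 in WT and 643 in KD. The part of these markers in the results below was not tested.

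The window from 250 bases before to 50 bases after the start site was taken from RefSeq (GRCm38.p6) for 40 of the 49 genes. It was searched on both strands for 4 spellings of the E2F core, the spelling TTCCCGC, the spelling TTCGCGC, the spelling TTGCCGC and the spelling TTGGCGC, and separately for CCAAT. The windows of *Mcm3* and *Cdt1*, whose mRNAs had the largest called rises, of *Rfc1* and *Rpa3*, which fell, and of *Mcm2*, which rose without a match, are shown 5′ to 3′ on the strand of the gene, with each match to an E2F core in capitals.
*Mcm3* (chr1:20820263-20820562, minus strand): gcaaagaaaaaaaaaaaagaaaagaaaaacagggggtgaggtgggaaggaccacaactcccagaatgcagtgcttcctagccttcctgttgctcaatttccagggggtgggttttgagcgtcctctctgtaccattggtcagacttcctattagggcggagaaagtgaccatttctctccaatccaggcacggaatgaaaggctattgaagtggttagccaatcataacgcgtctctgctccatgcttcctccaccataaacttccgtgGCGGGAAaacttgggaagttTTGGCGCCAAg
*Cdt1* (chr8:122567765-122568064, plus strand): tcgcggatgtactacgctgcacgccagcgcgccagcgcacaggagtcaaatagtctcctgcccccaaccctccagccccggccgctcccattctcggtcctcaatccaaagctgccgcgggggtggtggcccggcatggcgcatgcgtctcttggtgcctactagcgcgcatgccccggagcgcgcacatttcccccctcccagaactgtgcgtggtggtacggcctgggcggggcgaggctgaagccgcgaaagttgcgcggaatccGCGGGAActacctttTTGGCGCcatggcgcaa
*Rfc1* (chr5:65335590-65335889, minus strand): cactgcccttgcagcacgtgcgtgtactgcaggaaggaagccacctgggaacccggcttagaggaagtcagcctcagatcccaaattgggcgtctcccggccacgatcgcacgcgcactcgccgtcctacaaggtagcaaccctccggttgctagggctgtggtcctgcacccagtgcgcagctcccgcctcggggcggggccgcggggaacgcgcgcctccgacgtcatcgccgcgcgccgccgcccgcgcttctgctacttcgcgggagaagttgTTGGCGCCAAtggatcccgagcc
*Rpa3* (chr6:8259092-8259391, minus strand): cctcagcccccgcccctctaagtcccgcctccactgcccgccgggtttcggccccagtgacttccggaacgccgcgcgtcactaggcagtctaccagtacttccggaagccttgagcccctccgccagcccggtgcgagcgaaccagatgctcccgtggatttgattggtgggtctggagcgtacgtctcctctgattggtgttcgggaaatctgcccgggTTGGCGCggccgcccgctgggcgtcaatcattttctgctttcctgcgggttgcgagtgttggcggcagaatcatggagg
*Mcm2* (chr6:88898731-88899030, minus strand): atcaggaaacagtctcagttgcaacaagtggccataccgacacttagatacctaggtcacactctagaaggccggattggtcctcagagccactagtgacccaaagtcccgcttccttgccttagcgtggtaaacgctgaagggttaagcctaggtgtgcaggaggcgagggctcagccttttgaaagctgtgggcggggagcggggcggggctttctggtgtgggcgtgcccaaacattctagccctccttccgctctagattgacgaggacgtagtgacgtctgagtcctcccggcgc

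In the *Mcm3* window the matches lay 19 to 25, 39 to 45 and 42 to 48 bases after the start site, the last pair being the overlapping strands of a palindrome. The same palindrome lay 27 to 36 bases after the start site of *Rfc1*, where it overlapped a CCAAT. *Cdt1* had matches at 18 to 24 and 33 to 39 bases after the start, and *Rpa3* had a match 29 to 23 bases before it. An E2F core was found in 27 of 40 replication genes (67.5%), against 10.9% of the 27025 genes in the promoter table and 20.3% of 8588 tested protein-coding genes with a transcript of at least 100 normalised estimated counts. CCAAT was found in 22 of 40 (55.0%), against 41.1% of all genes in the table and 44.2% of the tested genes. An E2F core overlapped a CCAAT in 3 of the 50 windows of these 40 genes. The core was present in 2 of the 3 genes with a called rise, in all 5 genes with a called fall that have a window, and in 20 of the 32 without a call. Those shares rest on few genes, and a match of letters is a description, not evidence of binding. The windows follow RefSeq start sites, which are not always those of the main transcript tested. The only *Timeless* window lies at the start of its rarest transcript, and the main *Mcm7* transcript starts outside both of its windows.

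Of the 49 genes, 10 had a called transcript, 3 of them higher and 7 lower in KD, and the other 39 had none. Higher were *Cdt1*, *Mcm2* and *Mcm3*, and lower were *Mcm4*, *Cdc7*, *Prim1*, *Pole*, *Pole2*, *Rfc1* and *Rpa3*. Only *Cdc7* and *Rfc1* had 2 called transcripts, all of them falls, and isoforms of a gene share reads. The share of genes called was 20.4%, against 13.2% of all 21945 genes, of which 7.47% had a called rise and 5.93% a called fall. The replication genes were well expressed, with summed WT levels from 505 for *Gins1* to 14497 for *Rpa1* and a median of 2984. Among the 12210 genes with a summed mean of at least 100, to which all 49 belong, 22.7% had a call, 13.0% a rise and 9.98% a fall, against 6.12% and 14.3% of the replication genes. The median WT level was 1563 for the replication transcripts and 159.7 over all transcripts, and no share matched on level was computed. By transcript, 12 of 89 were called (13.5%), 3 higher and 9 lower, against 9.68% of all transcripts, 5.44% higher and 4.24% lower. Among transcripts with a mean of at least 100, the shares were 13.6% of 81 replication transcripts and 15.6% of all 18808.

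The summed levels of most replication genes were close to those in WT. Their median log2(fold change) was -0.03, with 22 genes above and 27 below their WT level, and the summed levels of 43 of 49 lay within 0.5 of no change on the log2 scale. Over all 21905 genes with a level above 0 in both groups the median was also -0.03, and over genes with a mean of at least 100 it was 0.04. The central 80% of replication genes spanned -0.39 to 0.33, narrower than the -0.53 to 0.49 of all genes with a mean of at least 100. These ranges were not matched on level, and the lowest summed WT level of a replication gene was 505. KD and WT libraries could not overlap in 51 of the 89 transcripts (57.3%), against 54.8% of all transcripts and 65.3% of those with a mean of at least 100, and must have overlapped in 28. For 62 of the 70 uncalled transcripts with a mean of at least 100, the 95% interval of the log2(fold change) lay between -1 and 1, and for 33 it lay between -0.5 and 0.5. The 12 calls rest on a spread that limma borrows from transcripts of similar level. With a single prior spread for all transcripts none of the 49 genes was called by limma, and the adjusted p of the 12 transcripts was then 0.0644 to 0.174. In that fit 16 transcripts of 14 genes, all 12 among them, had an unadjusted p under 0.05. The share of all transcripts under 0.05 is not given, and the 12 were picked from the same libraries, so this count lends the calls no support.

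**Figure D1:**
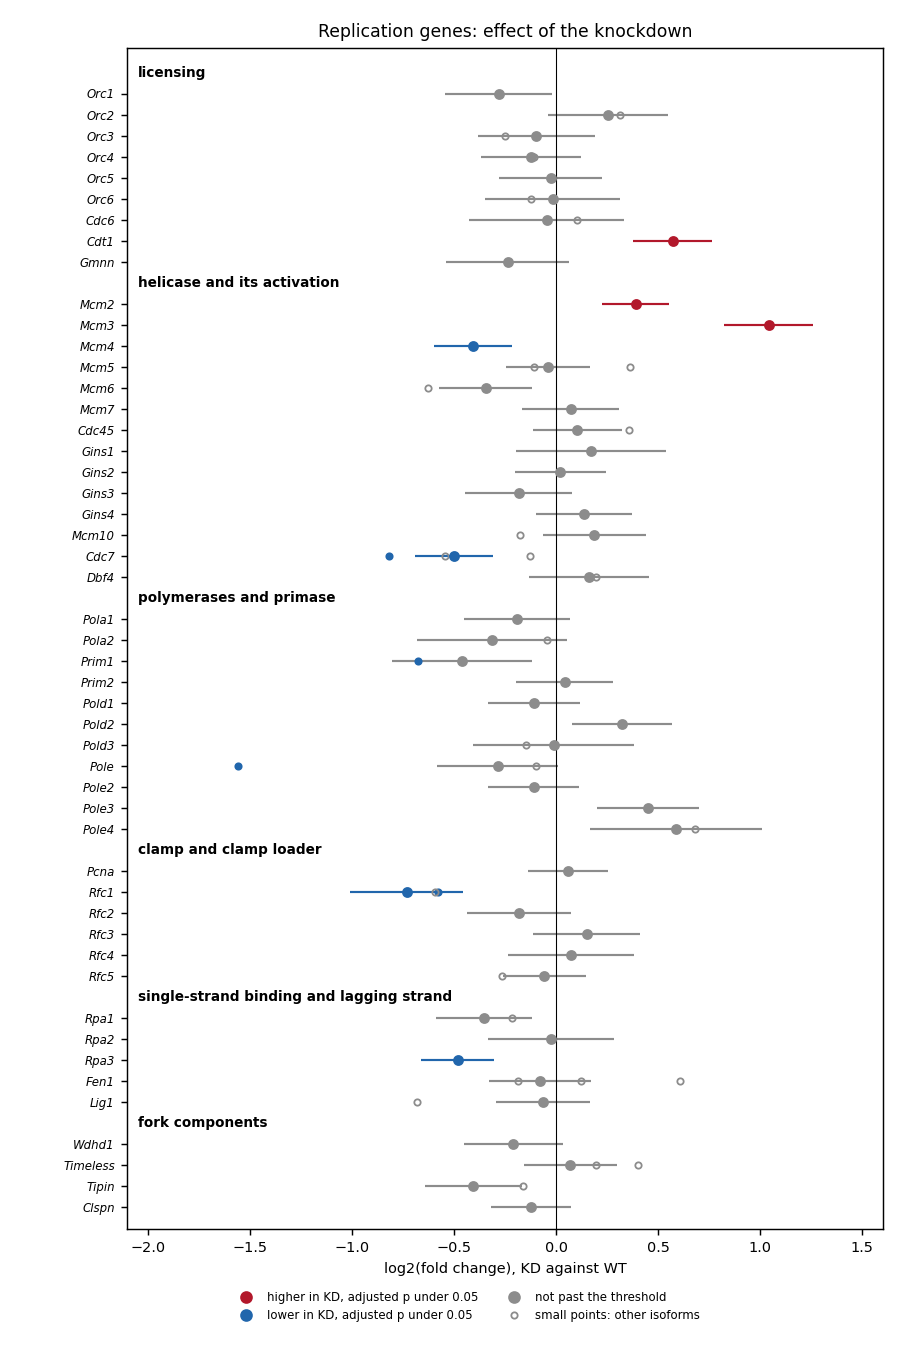
Effect of the *Setd2* knockdown on each of the 49 replication genes, ordered by role. The horizontal axis is the log2(fold change) of KD against WT, large points show the transcript with the highest level of each gene with its 95% interval from limma (n = 2 libraries in each group), and small points show further isoforms with a mean of at least 100, filled where called. Most points lie within 0.5 of 0, with *Mcm3* at 1.04 and the short *Pole* transcript at -1.56 farthest out.

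Origin licensing held 9 genes, of which *Cdt1* rose and none fell. *Cdt1*, the factor that brings the MCM ring to the origin, is represented by a single tested transcript (ENSMUST00000006760.2, chr8:122568015-122573128). Its level was 3086 in WT and 4583 in KD, and the libraries of the groups could not overlap. The log2(fold change) was 0.57 (SE 0.073, 95% interval 0.38 to 0.76, adjusted p = 0.0253). *Gmnn*, which encodes the CDT1 inhibitor geminin, had a main transcript at 2168 in WT and 1839 in KD, with a log2(fold change) of -0.24 that was not called (adjusted p = 0.261). Summed per kilobase of transcript, the *Cdt1* level was 0.623 times that of *Gmnn* in WT and 1.09 times in KD, and the difference between these ratios was not tested.

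The genes of the origin recognition complex, which marks the origin, had no call among their 6 members. Of the 15 transcripts of licensing genes, 3 had an unadjusted p under 0.05 in limma, those of *Cdt1* and *Orc1* and the shorter transcript of *Orc2*. The share of all tested transcripts under this limit is not given, so such counts, here and for the groups below, are a description only. *Orc1*, the subunit whose level is known to follow the cell cycle most closely, had the lowest value of the group (ENSMUST00000102744.3, 2193 in WT and 1806 in KD, log2(fold change) -0.28, SE 0.100, adjusted p = 0.156), and its libraries could not overlap. With Sleuth's rule for the variance, which smooths the spread between libraries and adds the uncertainty of assigning reads to isoforms, it passed the threshold (adjusted p = 0.0385). With the other alternatives listed below it was not called (adjusted p = 0.0872 to 0.302 in limma). Both *Orc2* transcripts lay above WT, at 0.25 and 0.31 on the log2 scale, with adjusted p of 0.225 and 0.115. The transcripts of *Orc3*, *Orc4*, *Orc5* and *Orc6* lay between -0.25 and -0.02. *Cdc6*, the ATPase that completes the loader with CDT1, had isoforms at -0.05 and 0.10, and the libraries of the groups must have overlapped in both.

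The 6 subunits of the MCM ring, which act as a heterohexamer with a single copy of each, had calls in both directions. *Mcm3* showed the largest rise of any replication gene (ENSMUST00000053266.10, chr1:20802968-20820312), from 3032 in WT to 6239 in KD, a 2.06-fold difference (log2(fold change) 1.04, SE 0.083, 95% interval 0.82 to 1.26, adjusted p = 0.0165). *Mcm2* rose from 6220 to 8149 (ENSMUST00000058011.7, chr6:88883474-88898780, log2(fold change) 0.39, SE 0.062, 95% interval 0.23 to 0.55, adjusted p = 0.0345). *Mcm4* fell from 8583 to 6472 (ENSMUST00000023353.3, chr16:15623897-15637400, log2(fold change) -0.41, SE 0.072, 95% interval -0.60 to -0.22, adjusted p = 0.0407). Each of these genes has a single tested transcript, and the groups could not overlap in any of them.

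The remaining subunits had no call. Both *Mcm6* transcripts lay below WT, the main one at 5349 and 4213 (log2(fold change) -0.34, adjusted p = 0.0793) and the longer one at 611 and 395 (-0.63, adjusted p = 0.0521), just outside the threshold. In both the groups could not overlap, and both passed the threshold with Sleuth's rule for the variance (adjusted p = 0.00107 and 0.00263). Both also passed in a limma fit restricted to means of at least 100 (adjusted p = 0.0362 and 0.0303). With a single prior spread for all transcripts neither was called by limma (adjusted p = 0.228 and 0.146). Neither was called relative to transcripts of similar GC content (adjusted p = 0.0882 and 0.0765 in limma). *Mcm7* was close to level, at 0.07 for each transcript. *Mcm5* was split over 3 transcripts, of which the one of 2604 bases lay at 0.36 (adjusted p = 0.144) and the others at -0.04 and -0.11.

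Per kilobase, the *Mcm3* mRNA was the lowest of the 6 in WT, at 1000.3 normalised estimated counts. In KD it had reached 2059, above *Mcm4* at 1803 and *Mcm6* at 1538. The highest of the 6, *Mcm7*, stood at 3077 in WT and 3235 in KD. The ratio of the highest to the lowest subunit was 3.08 in WT and 2.10 in KD, and the ratio of *Mcm3* to *Mcm4* went from 0.418 to 1.14. These ratios are sums without an error and were not tested.

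**Figure D2:**
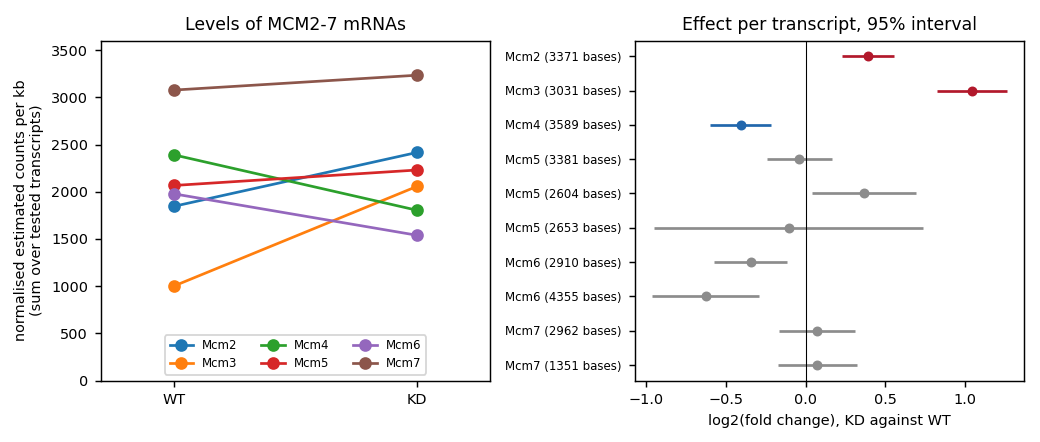
Levels of the 6 MCM subunit mRNAs in normalised estimated counts per kilobase, summed over tested transcripts, in WT and KD (left, each point a group of 2 libraries, with no error available for a sum), and the log2(fold change) of each transcript with its 95% interval (right, n = 2 libraries in each group; red higher, blue lower, grey not called). *Mcm3* and *Mcm2* lie above and *Mcm4* below 0, and the *Mcm3* line crosses those of *Mcm4* and *Mcm6*.

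Among the genes that turn the loaded ring into an active helicase, *Cdc7* fell. This kinase gene had 2 called transcripts. The level of ENSMUST00000031221.11 (chr5:106964322-106984432) was 2916 in WT and 2064 in KD (log2(fold change) -0.50, SE 0.073, 95% interval -0.69 to -0.31, adjusted p = 0.0302), and that of ENSMUST00000117196.8 was 1436 and 814 (-0.82, SE 0.087, 95% interval -1.05 to -0.59, adjusted p = 0.0201). The 2 minor transcripts also lay below WT, at -0.54 and -0.13, without a call. *Dbf4*, which encodes the activating subunit of this kinase, lay above WT in both its transcripts, at 0.16 and 0.20, with adjusted p of 0.407 and 0.499. Per kilobase, the summed *Dbf4* level was 1.18 times that of *Cdc7* in WT and 1.97 times in KD. The sums have no error and the difference between these ratios was not tested. *Cdc45*, *Mcm10* and the 4 GINS genes had no call. The main transcripts of *Cdc45*, *Gins1*, *Gins2*, *Gins4* and *Mcm10* lay between 0.02 and 0.19, and that of *Gins3* at -0.18. Across the 14 genes of the helicase and its activation, 2 had a rise, 2 a fall and 10 neither, and the median of the summed levels was 0.12, the highest of the 6 groups.

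The 11 genes of the polymerases and primase had 3 called falls and no called rise in limma, although 4 transcripts above WT had an unadjusted p under 0.05 and 3 genes were called higher with Sleuth's rule for the variance. *Prim1*, the catalytic subunit of primase, fell in its less abundant transcript (ENSMUST00000178041.7, chr10:128015168-128029983), from 1550 to 970 (log2(fold change) -0.68, SE 0.089, 95% interval -0.91 to -0.44, adjusted p = 0.0263). Its main transcript was at 4469 in WT and 3247 in KD, with a log2(fold change) of -0.46 and a wider spread (SE 0.130, adjusted p = 0.101). *Prim2*, the other primase subunit, lay at 0.04, with a 95% interval from -0.20 to 0.28. *Pola1*, the catalytic subunit of polymerase alpha, lay at -0.19, and the *Pola2* transcripts at -0.31 and -0.05.

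Polymerase epsilon, which is assigned to the leading strand, had subunits on both sides of 0. *Pole*, the catalytic subunit, fell by 66.2% in a short transcript (ENSMUST00000112482.1, chr5:110286341-110291235), from 258 to 87.4 (log2(fold change) -1.56, SE 0.15, 95% interval -1.95 to -1.17, adjusted p = 0.0190). This transcript has 6 exons against 49 of the full-length one. Its last exon (chr5:110290959-110291235) begins where exon 6 of the full-length transcript begins and runs 122 bases past the end of that exon into the intron, which is 2146 bases long. It held 6.81% of the *Pole* level in WT and 2.90% in KD. Each of its exons has its start or its end in common with an exon of the full-length transcript, so its level depends on how reads were divided between the isoforms: the SD of that assignment was 0.28 on the log2 scale, larger than the spread between libraries within a group, 0.057. With the assignment variance included by Sleuth's rule the call remained (adjusted p = 6e-05). The full-length transcript was at 3348 and 2744 (log2(fold change) -0.29, adjusted p = 0.185), and an isoform from the 3′ part of the gene at 189 and 176.

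*Pole2* was called through a rare transcript (ENSMUST00000221411.1, chr12:69201773-69228179) that was at 14.2 in WT and 0 in KD, at least 4.75-fold lower when 3 normalised estimated counts are taken as the floor of a group. Its log2(fold change) of -4.88 (SE 0.82, adjusted p = 0.0376 in limma) depends on the 0.5 added to each estimated count. This transcript made up 0.721% of the *Pole2* level in WT and its assignment SD was 1.31 on the log2 scale. With the assignment variance included by Sleuth's rule it was no longer called (adjusted p = 0.103). The main *Pole2* transcript was at 1959 and 1816, with a log2(fold change) of -0.11 (adjusted p = 0.461). The histone fold subunits of polymerase epsilon lay on the other side. *Pole3* was at 4952 in WT and 6761 in KD (log2(fold change) 0.45, SE 0.095, adjusted p = 0.0567). *Pole4*, its partner, had its main transcript at 1839 and 2765 (0.59, adjusted p = 0.0928) and a shorter one, with the largest positive value of the group, at 556 and 892 (ENSMUST00000160281.7, 0.68, SE 0.23, 95% interval 0.07 to 1.29, adjusted p = 0.143). In these 3 transcripts the groups could not overlap, but none passed the threshold. Of the polymerase delta subunits, which act mainly on the lagging strand, *Pold2* lay at 0.32 (adjusted p = 0.106), *Pold1* at -0.11 and the *Pold3* transcripts at -0.01 and -0.15.

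**Figure D3:**
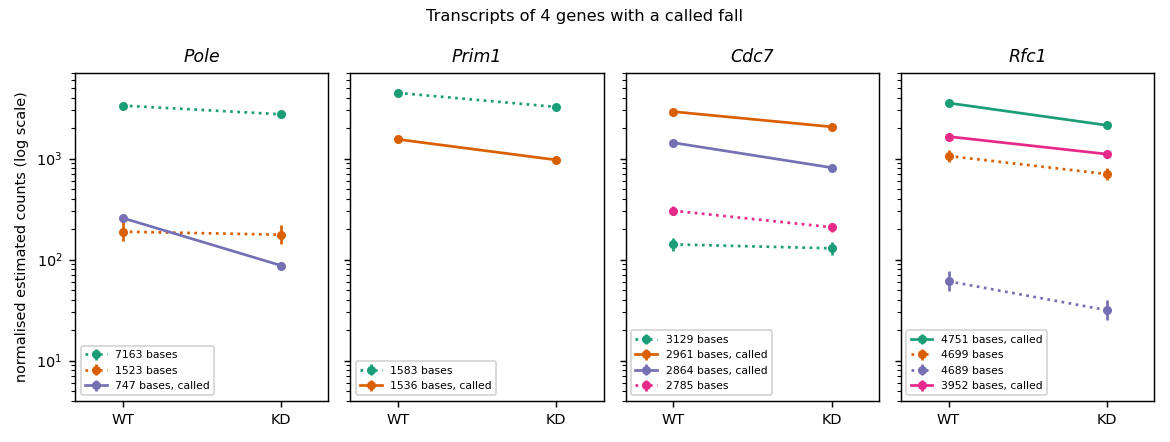
Levels of each tested transcript of *Pole*, *Prim1*, *Cdc7* and *Rfc1* in WT and KD, in normalised estimated counts on a log axis, named by transcript length. Bars are the standard error of a group level derived from limma's moderated spread (n = 2 libraries in each group), lines are solid where the transcript was called and dotted otherwise. All transcripts of the 4 genes slope downwards, and the 747-base *Pole* transcript falls from 258 to 87.4.

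In the clamp and clamp loader group, *Rfc1* fell and the other 5 genes had no call. *Rfc1* encodes the large subunit of the loader. Its main transcript (ENSMUST00000204965.2, chr5:65261852-65335670) was at 3551 in WT and 2137 in KD (log2(fold change) -0.73, SE 0.11, 95% interval -1.01 to -0.45, adjusted p = 0.0298). The transcript ENSMUST00000203471.2 was at 1652 and 1108 (-0.58, SE 0.100, adjusted p = 0.0395), and 2 further isoforms lay at -0.59 and -0.94 without a call. The last of these was at only 60.9 in WT and 31.6 in KD, with an assignment SD of 2.21 on the log2 scale. The summed *Rfc1* level had a log2(fold change) of -0.67, the lowest of all 49 genes. The small subunits, which RFC1 shares its pentamer with, lay close to level in their main transcripts: *Rfc2* at -0.18, *Rfc3* at 0.15, *Rfc4* at 0.07 and *Rfc5* at -0.06. *Rfc3* had the largest positive value of the group (ENSMUST00000038131.9, 1800 in WT and 1997 in KD, SE 0.100, 95% interval -0.11 to 0.41, adjusted p = 0.396). No transcript of the group above WT had an unadjusted p under 0.05, and no gene of it was called higher with Sleuth's rule. Per kilobase, the ratio of *Rfc1* to *Rfc2* was 2.27 in WT and 1.62 in KD, a difference that was not tested. *Pcna*, the clamp itself, was at 11190 in WT and 11644 in KD. Its log2(fold change) of 0.06 had a 95% interval from -0.14 to 0.25 (adjusted p = 0.667), and its libraries must have overlapped.

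Replication protein A coats the single-stranded DNA behind the helicase. Its smallest subunit, *Rpa3*, fell from 4204 to 3008 (ENSMUST00000012627.4, chr6:8255936-8259173, log2(fold change) -0.48, SE 0.069, 95% interval -0.66 to -0.30, adjusted p = 0.0289). The main transcript of the large subunit, *Rpa1*, was at 12412 in WT and 9728 in KD and was not called (-0.35, adjusted p = 0.0812), and *Rpa2* was at 1774 and 1744 (-0.02, 95% interval -0.33 to 0.28). *Fen1*, the flap nuclease that trims Okazaki fragments, was close to level in its main transcript (-0.08). Its rarest isoform had the largest positive value of the group (ENSMUST00000156291.1, 148 in WT and 226 in KD, log2(fold change) 0.61, SE 0.46, adjusted p = 0.448), with a 95% interval from -0.59 to 1.81. The SD of read assignment for this isoform was 2.13 on the log2 scale, larger than that SE. *Lig1*, which seals these fragments, was also near level in its main transcript (-0.06), while a second isoform had the lowest value of the group at 735 and 458 (ENSMUST00000165964.7, -0.68, SE 0.19, adjusted p = 0.0973). No transcript of these 5 genes above WT had an unadjusted p under 0.05 in limma.

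The fork components had no call in limma among their 4 genes, with 1 of 10 transcripts at an unadjusted p under 0.05 and 1 gene called with Sleuth's rule, *Tipin* in both cases. *Tipin*, which forms the fork protection complex with *Timeless*, was at 3566 in WT and 2692 in KD in its main transcript (ENSMUST00000034964.6, log2(fold change) -0.41, SE 0.090, adjusted p = 0.0619). This transcript was called in a limma fit restricted to means of at least 100 (adjusted p = 0.0268). Relative to transcripts of similar GC content it lay at -0.19 and was not called (adjusted p = 0.284 in limma). The *Timeless* transcripts with a mean of at least 100 lay on the other side, from 0.07 to 0.40, the last being the largest value of the group (ENSMUST00000105242.7, 180 in WT and 238 in KD, SE 0.17, adjusted p = 0.211). The checkpoint mediator *Clspn* lay at -0.12 and *Wdhd1*, which ties the helicase to polymerase alpha, at -0.21 in its main transcript.

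Set side by side, the medians of the summed log2(fold changes) were -0.03 for licensing, 0.12 for the helicase and its activation, -0.11 for polymerases and primase, -0.01 for the clamp and its loader, -0.15 for single-strand binding and the lagging strand and -0.16 for fork components. Called rises were found in licensing (1 of 9 genes) and the helicase (2 of 14). Called falls were found in the helicase (2 of 14), the polymerases (3 of 11), the clamp loader (1 of 6) and single-strand binding (1 of 5). The 3 polymerase falls were calls of less abundant transcripts of *Prim1*, *Pole* and *Pole2*, and the main transcripts of these genes were not called. Among all genes with a summed mean of at least 100, 13.0% had a called rise and 9.98% a called fall. The groups were not tested against each other, and their ranges overlapped.

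Of the 49 genes, 20 had a single tested transcript and 29 had several, up to 4. In 24 genes at least 2 isoforms had a mean of at least 100, and in 20 of these all such isoforms lay on the same side of WT, 6 above and 14 below. Isoforms of a gene share reads and are not independent: the median SD of read assignment was 0.105 on the log2 scale for transcripts of genes with several isoforms and 0.027 for those with a single transcript.

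GC content moved with the effects. The 3 called rises were transcripts with 52.5% to 58.8% GC and the 9 called falls had 40.4% to 50.2%. The same held over all transcripts, where called rises had a median of 53.8% and called falls 45.2%. Spearman's correlation between effect and GC content was 0.30 over the 87 replication transcripts with a known sequence and 0.27 over all 33720, as a description across transcripts of the same libraries. When each effect was taken relative to transcripts of similar GC content, all 12 called transcripts kept their direction and 6 remained called, those of *Mcm3*, *Prim1*, *Pole* and *Pole2* with 1 each of *Cdc7* and *Rfc1*. *Cdt1* moved to 0.38 (adjusted p = 0.0571), *Mcm2* from 0.39 to 0.17 (adjusted p = 0.178), *Mcm4* to -0.30 (adjusted p = 0.0856) and *Rpa3* from -0.48 to -0.32 (adjusted p = 0.0720). The part of GC content in the results was not tested further.

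**Figure D4:**
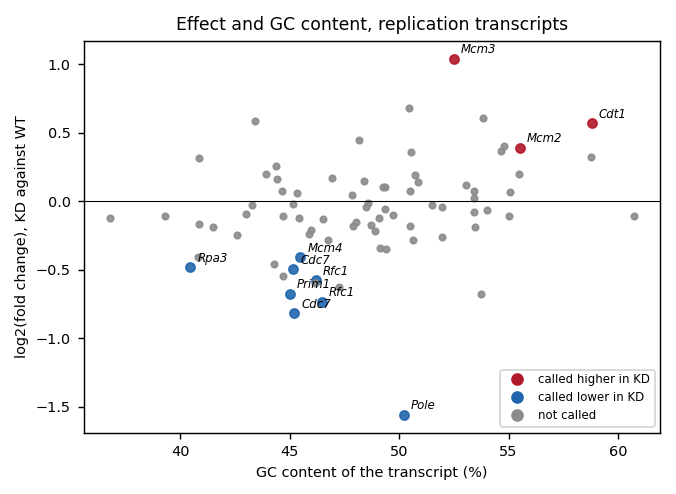
Log2(fold change) of KD against WT (vertical axis) against the GC content of the transcript in percent (horizontal axis) for replication transcripts with a mean of at least 100 and a known sequence; each point is a transcript, coloured where called by limma. The called rises lie at 52.5% to 58.8% GC and, apart from *Pole* at 50.2%, the called falls to the left of them at 40.4% to 46.5%.

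Further genes of replication were counted from a list of 29, among them genes of origin firing, chromatin assembly, unloading of the clamp and topology. All 29 were tested, 1 rose and 2 fell, against a call in 13.2% of all genes and in 22.7% of those with a mean of at least 100, and their median was -0.01. *Recql4*, a helicase that takes part in origin firing, rose from 1817 to 2766 (log2(fold change) 0.61, SE 0.084, adjusted p = 0.0280). *Pclaf*, a PCNA-binding factor, fell from 6365 to 3775 (-0.75, SE 0.11, adjusted p = 0.0316), and *Atad5*, whose product takes PCNA off DNA as part of an alternative RFC complex, fell by 0.72 on the log2 scale (adjusted p = 0.0461).

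Of 13 E2F and pocket protein genes, the regulators of this gene programme, 12 were tested, of which 3 rose and 4 fell, against a call in 13.2% of all genes and in 22.7% of those with a mean of at least 100. *E2f2*, an activator, rose from 410 to 750 (log2(fold change) 0.87, SE 0.16, adjusted p = 0.0450), and *Rb1* and *E2f4* rose by 0.78 and 0.57 (adjusted p = 0.0317 and 0.0328). The largest fall of a called transcript was that of *Rbl2*, a pocket protein that acts with E2F4 in resting cells, from 1038 to 663 (-0.65, SE 0.11, adjusted p = 0.0395), beside *Tfdp2*, *Rbl1* and *E2f7* at -0.61, -0.52 and -0.51 (adjusted p = 0.0434, 0.0278 and 0.0465). The median over the 12 was 0.12.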

How the data were processed

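RNA-seq of 2 *Setd2* KD and 2 Scrambled (WT) libraries of NIH/3T3 cells was analysed, grouped by the knockdown label. Adapters were removed by the authors with BBDuk, reads were quantified per transcript with Kallisto and compared in Sleuth. The transcriptome index and the filter on low counts are not given in the sources used here. The deposited means and effects are natural log values, which the authors obtained from estimated counts divided by size factors plus 0.5, and the deposited variances are on that scale. The files also hold p-values and q-values of the authors' comparison, per transcript and per gene, which were not used. The deposited effect was used because it is the only source of the group difference. Its sign was read as KD minus WT, under which *Setd2* is lower in KD.

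The variance within groups was rebuilt from the deposited columns by an identity that held in every row (largest relative difference 3.38e-12). Effects were tested with limma 3.58.1 in R 4.3.3, moderating that variance (2 residual degrees of freedom) with a trend on the mean, and adjusted by Benjamini-Hochberg over 34200 transcripts. The procedure was tested on simulated data. The simulated spread was fixed by the mean level, without scatter between transcripts, so that test cannot show whether the trend suits these data. Whether the 2 libraries came from separate transfections of the triplicate is not given for each library, so p-values measure the spread between these libraries only. Sleuth's rule takes the larger of the smoothed and the raw variance between libraries plus the assignment variance.

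Annotation came from GENCODE M21 of GRCm38 (98.6% of transcripts matched by identifier and version, 87 of 89 replication transcripts). Full statistics are given for called transcripts and for the largest rise and fall of each group among transcripts with a mean of at least 100. Transcripts named beyond this rule were chosen after their values were seen. The members, groups and lists were chosen with earlier results of these data known. Alternatives were no trend, Sleuth's rule, a mean of at least 100, centring on the median effect and centring over 50 classes of GC content.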

Additional observations from a re-analysis of the deposited data

How the results depend on the processing

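With limma and no trend on the mean, 127 transcripts were called in place of 3312 (51 higher and 76 lower against 1861 and 1451) and 0 of 49 replication genes in place of 10. With Sleuth's rule for the variance 6233 transcripts and 17 replication genes were called, 6 higher and 11 lower, and 11 of the 12 called replication transcripts remained. After centring on GC content the counts were 1962 transcripts and 6 genes, with 1 higher and 5 lower. In a separate limma fit and adjustment restricted to means of at least 100, 4965 transcripts and 14 replication genes were called, where the fit over all transcripts called 2943 of the same 18808. Centring on the median effect, a shift of 0.05 on the log2 scale, gave 3168 transcripts and 11 genes and turned the split from 56.2% to 46.6% higher. The median summed log2(fold change) of the replication genes stayed between -0.08 and -0.02. At 1.5 times the bound, KD and WT libraries could not overlap in 34 replication transcripts, against 51. No share of all transcripts is given for 1.5 times the bound, so the 34 are a description only. At the main bound the share was 57.3%, against 54.8% of all transcripts and 65.3% of those with a mean of at least 100. Of the 19 transcripts with full statistics none changed direction when effects were centred on the median or on GC content, and the other alternatives leave the effects as they are. The calls of 12 transcripts were lost without the trend, of 6 after GC centring and of 1, *Pole2*, with Sleuth's rule, and this transcript lies under the limit of 100 and was not tested there. Further transcripts were called with Sleuth's rule (*Lig1*, *Mcm6*, *Orc1*, *Pold2*, *Pole3*, *Pole4*, *Prim1*, *Rpa1* and *Tipin*), in the fit above 100 (*Mcm6*, *Pole3*, *Pole4*, *Prim1*, *Rpa1* and *Tipin*) and after median centring (*Mcm6*). The planned count from the authors' likelihood ratio test was not run, since it would repeat their comparison. No paired analysis was possible because the files used here summarise the libraries of a group, and leaving out each library in turn was not run for the same reason. The depth of the libraries is unknown, and with 2 libraries in each group the median SE of a replication transcript was 0.11 on the log2 scale, against 0.22 over all transcripts.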
